A study of Mus musculus with 6 samples.

Results

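The guanylate-binding proteins are large GTPases that cells make in quantity after interferon-gamma. In mice their genes lie in one cluster on chromosome 3 and another on chromosome 5, and the 10 genes described here are Gbp2, Gbp3, Gbp5 and Gbp7 of the first and Gbp4, Gbp6, Gbp8, Gbp9, Gbp10 and Gbp11 of the second. They were picked by family name, with earlier KO against WT results of these libraries in view, and were matched by Ensembl ID to 10 of the 49671 genes in the count table. All 10 passed the filter on low counts.

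Liver RNA was measured by RNA-seq in 3 wild-type (WT) and 3 p75NTR KO mice, with 1 library for each numbered liver and all mice raised for 6 months. The KO mice were homozygous for the Lee allele, in which part of Ngfr, the gene of the p75 neurotrophin receptor (p75NTR), is deleted. The founders came from The Jackson Laboratory, the labels give every mouse the strain name B6.1129S4-Ngfr/J, and the line was bred on to give WT and KO animals, which ate a standard diet. The deletion was in every cell of the body, the mice carried no other named allele or agent, and the labels name no sex. The p75NTR is a member of the tumor necrosis factor receptor family, and the comparison asked how its loss alters transcription in the liver.

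Interferon-gamma binds its receptor, and transcription factors such as IRF1 then act on the Gbp promoters, which carry gamma-activated sequences and interferon-stimulated response elements. The Gbp proteins bind GTP, self-assemble and coat bacteria and the vacuoles of parasites such as Toxoplasma, and several of them promote inflammasome signalling. Gbp2 and Gbp5, and also Gbp2b, end in a prenylation signal that anchors them in membranes. In liver these genes can be induced in hepatocytes as well as in Kupffer and endothelial cells. In bulk tissue, fewer cells of a type and less RNA per cell cannot be told apart.

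Total counts were 27107209 to 31412855 per library in WT and 29784429 to 32664149 in KO. Ngfr was 2.82 to 4.63 CPM (counts scaled to the library total) in WT and 0.834 to 1.68 CPM in KO, with no overlap, although the deleted part was not examined on its own. The 12 hepatocyte markers summed to 124500 to 142100 CPM in WT and 118900 to 137900 CPM in KO, so the tissue label held. The library KO 4 stood apart: 4 Y-linked genes summed to 161 CPM in it and to at most 0.0724 CPM in the other 5 libraries, and Xist was at 0.548 CPM against 214 to 342 CPM. By these transcripts KO 4 was a male liver and the other 5 were female, so the KO group mixes sexes. The fold change of each member and the median of each pathway list are therefore also given without KO 4. Libraries WT 3 and KO 1 had the highest summed levels of Kupffer cell markers.

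The sequences bear on how well the members can be told apart, because the reads were 75 bases long. Gbp10 and Gbp6 were 98.4% identical over 1833 aligned coding bases, whereas the other pairs of chromosome 5 members were 90.0% to 93.9% identical. The next lines give the coding stretch of Gbp10 that differed most from Gbp6, with the matching stretches of Gbp6 and Gbp11, all on the minus strand of GRCm38. Capitals in Gbp10 mark its 11 differences from Gbp6, and capitals in Gbp6 and Gbp11 mark differences from Gbp10.
Gbp10, chr5:105218392-105218466: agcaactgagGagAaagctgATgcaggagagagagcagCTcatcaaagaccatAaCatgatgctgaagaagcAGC
Gbp6, chr5:105274192-105274266: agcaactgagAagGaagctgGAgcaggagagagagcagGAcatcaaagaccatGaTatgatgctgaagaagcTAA
Gbp11, chr5:105324912-105324986: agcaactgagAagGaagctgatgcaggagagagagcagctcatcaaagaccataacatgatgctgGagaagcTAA

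A read from this stretch separates the 3 genes. Over the stretch shown next, a read fits Gbp10 and Gbp6 equally, and only Gbp11 differs, by the 3 bases in capitals.
Gbp10, chr5:105236060-105236134: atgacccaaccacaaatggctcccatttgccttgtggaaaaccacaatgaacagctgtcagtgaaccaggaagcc
Gbp6, chr5:105290946-105291020: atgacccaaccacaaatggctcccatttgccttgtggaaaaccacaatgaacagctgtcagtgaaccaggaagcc
Gbp11, chr5:105343855-105343929: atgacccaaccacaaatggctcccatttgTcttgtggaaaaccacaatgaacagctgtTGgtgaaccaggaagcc

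Of all 75-base windows in the annotated transcripts of Gbp10, 77.8% also occurred in another gene, and for Gbp6 the share was 67.3%. In Gbp10, 65.6% of windows were found in Gbp6 and 67.1% in Gm43302, a gene model that spans chr5:105214907-105293695 and joins exons of Gbp6 to the end of Gbp10. Gm43302 also covered 46.3% of the exon bases of Gbp10 and 29% of those of Gbp6, and it had 0 counts in every library. Gbp7 shared 11.3% of its windows, mostly with the model Gm43802, which had 0 counts as well, and Gbp11 shared 10.3%. The other 6 members shared 0.578% (Gbp5) to 8.04% (Gbp8). The labels and methods do not say how reads that matched several genes were treated, so the values of Gbp10 and Gbp6 are uncertain as single genes.

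**Figure D1:**
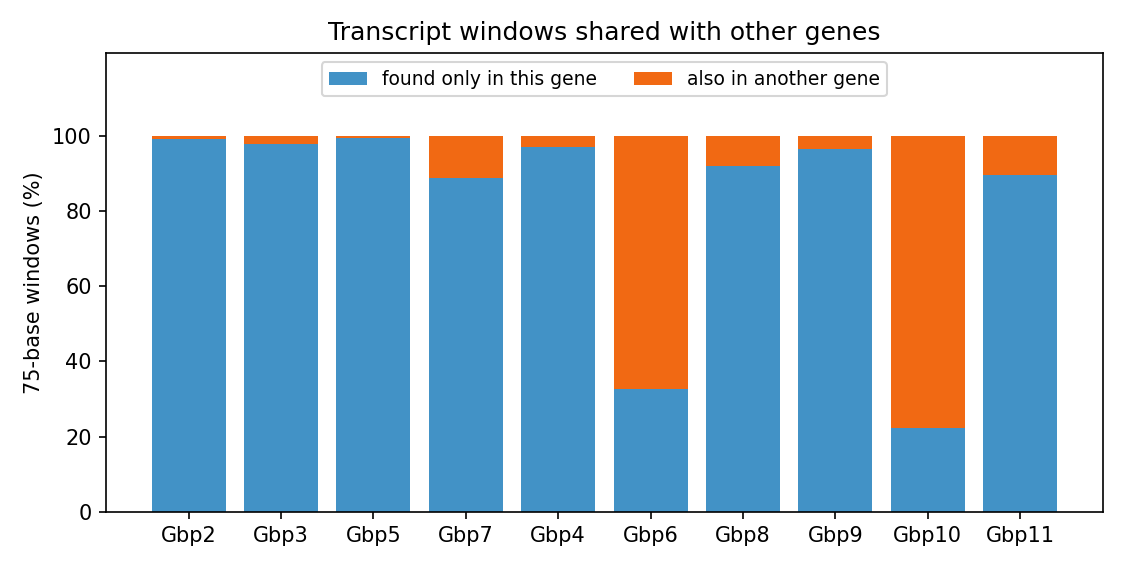
Share of the 75-base windows in the annotated transcripts of each member (horizontal axis) that occur only in that gene (blue) or also in another gene (orange), in percent. Gbp10 (77.8%) and Gbp6 (67.3%) shared most of their windows, and the other 8 members shared 0.578% to 11.3%.

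The promoter table held RefSeq starts on GRCm38.p6 for the 4 chromosome 3 members and their neighbour Gbp2b. Each gene had at least 1 core of an interferon-stimulated response element (TTTC, any 2 bases and TTTC, searched on both strands) in the 250 bases before its main RefSeq start, against 2.98% of 32851 promoters in the table. A second RefSeq start of Gbp3 had none. The cores are shown in capitals, with their neighbouring bases on the plus strand, because they are the sequence feature these members have in common.
Gbp5, chr3:142496759-142496788: acttgtgtagTTTCAATTTCagtttagaga
Gbp7, chr3:142530273-142530302: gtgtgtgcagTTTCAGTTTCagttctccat
Gbp3, chr3:142559992-142560021: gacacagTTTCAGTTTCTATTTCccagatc
Gbp2b, chr3:142594700-142594729: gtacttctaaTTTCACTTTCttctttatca
Gbp2, chr3:142620594-142620623: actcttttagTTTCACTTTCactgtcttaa

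The first base of the core lay 165 bases before the start in Gbp5, 53 in Gbp7, 45 in Gbp3, where 2 cores overlap, 137 in Gbp2b and 59 in Gbp2. Gamma-activated sequences (TTCNNNGAA) occurred 2 times each in the windows of Gbp5 and Gbp7 and in none of the others, against 7.02% of all promoters with at least 1. These matches describe letters only, and no binding was measured.

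The levels of the 10 members differed widely when set on a common scale of CPM per kilobase of merged exons. Gbp3 had 4.43 ± 2.26 (SD, n = 3) in WT and 3.12 ± 1.32 in KO. Gbp2 had 3.43 ± 0.795 in WT and 3.59 ± 1.21 in KO, and Gbp7 had 3.87 ± 1.81 in WT and 2.98 ± 1.01 in KO. These highest members lay within one SD of each other, and in KO all 3 lay further than one SD above the next member. Gbp11 followed at 2.01 ± 1.69 in WT and 1.02 ± 0.122 in KO, then Gbp9 at 0.887 ± 0.218 and 0.769 ± 0.337, and Gbp10 at 1.12 ± 0.962 and 0.300 ± 0.0196. The order of Gbp11, Gbp9 and Gbp10 in WT was within their spread. Gbp8, Gbp6, Gbp4 and Gbp5 closed the order of means over all libraries, with group means of 0.293 to 0.50 CPM per kilobase. In WT each lay within one SD of its neighbour except Gbp4 and Gbp5, at 0.407 ± 0.0735 and 0.321 ± 0.0356. In KO the mean of Gbp10 lay below those of Gbp8, Gbp6 and Gbp4, each by less than that gene's SD. Only windows unique to a gene were also taken as its length, an alternative chosen after seeing the data. Over all libraries Gbp10 then moved from rank 6 to rank 4, Gbp6 from rank 8 to rank 6 and Gbp7 from rank 3 to rank 1. On that scale Gbp10 had the highest WT mean, 5.13 ± 4.41, against 4.36 ± 2.04 for Gbp7, a difference within their spread. In KO Gbp10 had 1.375 ± 0.0895.

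**Figure D2:**
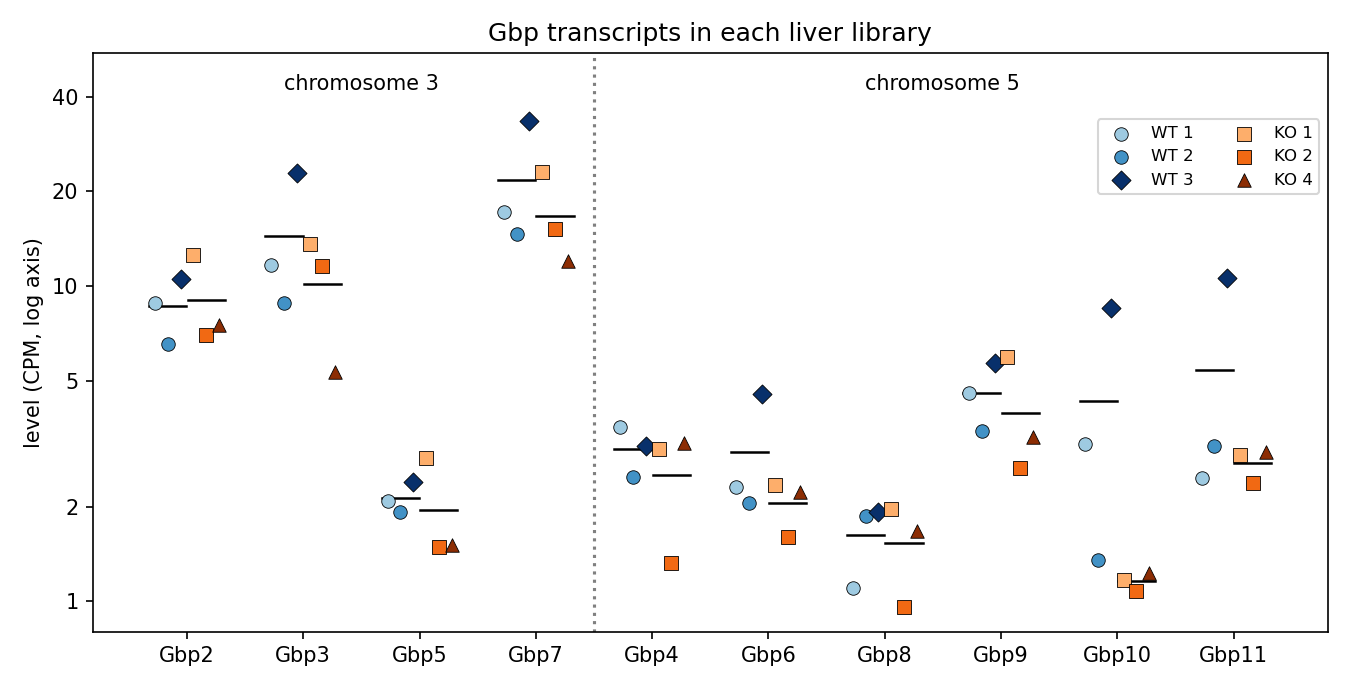
Level of each member in every liver library in CPM on a log axis, with the chromosome 3 members to the left of the dotted line and the chromosome 5 members to the right. Points are libraries (blue WT, orange to brown KO) and short bars are group means of 3 libraries. The WT 3 diamond lies above every other point for Gbp3, Gbp6, Gbp7, Gbp10 and Gbp11, and the 3 KO points of Gbp10 lie at 1.08 to 1.23 CPM, below its lowest WT point of 1.35 CPM.

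In the KO against WT comparison, 9 of the 10 members had a lower value in KO and 1, Gbp2, a higher one. This contrast was used to choose the family, so the differences are a description and carry no test. The calls of members given next come from the same contrast and are no separate support for any member. The edgeR quasi-likelihood fit across 13773 genes called 0 members and 0 genes in all (0% of genes, at an adjusted p under 0.05). DESeq2, run as an alternative, called 1 member, Gbp10, and 155 of 15305 genes (1.01%), and without KO 4 it again called Gbp10 among 406 of 13194 genes (3.08%). Without WT 3 it called 0 members and 203 of 14544 genes (1.4%), so the call of Gbp10 was lost. At an unadjusted p under 0.05 edgeR listed 1 member, against 7.17% of all genes. The median log2 fold change of the 10 members was -0.33, beside -0.00 for all genes tested. Without KO 4 it was -0.18, with 8 members lower, and edgeR then called 0 members and 114 of 14102 genes (0.808%). Without WT 3 the median was -0.02, with 7 members lower.

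Gbp10 differed most between the groups. It had 3.15, 1.35 and 8.51 CPM in WT 1, WT 2 and WT 3 (97, 42 and 235 counts) and 1.17, 1.08 and 1.23 CPM in KO 1, KO 2 and KO 4 (37, 35 and 36 counts). The KO libraries were almost alike, and the WT libraries spanned a range of more than 6-fold, with WT 2 close to the KO values and WT 3 far above. The log2 fold change was -1.89 ± 0.60 (SE), which became -1.93 without KO 4 and -0.95 ± 0.42 without WT 3. Gbp10 was the only member whose WT and KO ranges did not overlap. Every KO library lay below every WT library in 6.4% of all genes tested, and the ranges were apart in either direction in 12.4%.

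Gbp11, annotated as a polymorphic pseudogene, was the member with the next largest difference. Its levels were 2.47, 3.12 and 10.7 CPM in WT and 2.91, 2.38 and 2.98 CPM in KO. Only WT 3 stood out, at 3.81 times the mean of WT 1 and WT 2, and the remaining 5 libraries of both groups overlapped. The log2 fold change of -0.97 ± 0.52 stayed at -1.02 without KO 4 and was -0.02 ± 0.27 without WT 3.

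Gbp6, whose protein gathers on the Toxoplasma vacuole in mouse cells, had 2.31, 2.06 and 4.56 CPM in WT and 2.34, 1.61 and 2.23 CPM in KO. WT 3 was again the highest library and the groups overlapped. Its log2 fold change was -0.53 ± 0.36, -0.58 without KO 4 and -0.08 without WT 3. Because Gbp6 and Gbp10 share most of their sequence, their counts were also summed: 168, 106 and 361 in WT and 111, 87 and 101 in KO. Any reads that were counted for neither gene are missing from the sum as well. In the sum, WT 2 fell inside the KO range, so the groups overlapped. The log2 fold change of the sum was -1.18 ± 0.45, -1.23 without KO 4 and -0.46 ± 0.28 without WT 3.

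Gbp7, which has been tied to assembly of the phagocyte oxidase in mouse macrophages, was the most abundant member in CPM. It had 17.2, 14.7 and 33.3 CPM in WT and 23.0, 15.2 and 12.01 CPM in KO. WT 3 was highest, KO 1 came next and KO 4 was lowest. The log2 fold change was -0.37 ± 0.34, -0.18 without KO 4 and 0.07 without WT 3. Without KO 1 it was -0.66 ± 0.34.

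Gbp3 had 11.7, 8.86 and 22.8 CPM in WT and 13.6, 11.6 and 5.34 CPM in KO. Here 2 libraries stood out, WT 3 above the others and KO 4 below them, while KO 1 and KO 2 lay between the WT values. The log2 fold change was -0.50 ± 0.41, -0.19 without KO 4 and -0.01 without WT 3. With both of those libraries left out it was 0.30 ± 0.18, and without KO 1 alone it was -0.75 ± 0.45.

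The prenylated members Gbp2 and Gbp5 had values within one SE of 0. Gbp2, which is recruited to bacterial and parasite vacuoles, had 8.83, 6.55 and 10.5 CPM in WT and 12.5, 7.01 and 7.53 CPM in KO. Its highest library was KO 1, its lowest WT 2, and the log2 fold change was 0.06 ± 0.27, or 0.18 without KO 4. Gbp5, which promotes inflammasome assembly, had 2.08, 1.93 and 2.39 CPM in WT and 2.85, 1.48 and 1.51 CPM in KO. The KO values lay on either side of the WT range, and the log2 fold change was -0.13 ± 0.33, or 0.03 without KO 4. Without KO 1 the values were -0.24 ± 0.24 for Gbp2 and -0.50 ± 0.32 for Gbp5. Their relative Gbp2b, known in older work as Gbp1 and not among the 10, had 1.82, 3.95 and 3.98 CPM in WT and 3.45, 1.79 and 1.88 CPM in KO, with a log2 fold change of -0.45 ± 0.39, or -0.31 without KO 4.

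The remaining chromosome 5 members, Gbp4, Gbp8 and Gbp9, begin at nearly the same place and share 60 or 61 bases of exon with one another. Gbp9, a further protein of the Toxoplasma vacuole in mouse, had 4.58, 3.47 and 5.72 CPM in WT and 5.95, 2.66 and 3.32 CPM in KO. Gbp4 had 3.57, 2.47 and 3.11 CPM in WT and 3.04, 1.33 and 3.18 CPM in KO. For both, KO 2 was the lowest library and the groups overlapped. Gbp8 was the least abundant in CPM apart from Gbp10 in KO, with 1.10, 1.86 and 1.92 CPM in WT and 1.96, 0.958 and 1.68 CPM in KO. The log2 fold changes were -0.20 ± 0.34 for Gbp9, -0.28 ± 0.36 for Gbp4 and -0.09 ± 0.38 for Gbp8, each within one SE of 0. Without KO 4 they were -0.09, -0.48 and -0.15. Without KO 1, Gbp9 was -0.61 ± 0.30 and Gbp8 -0.30, and without KO 2 the values were 0.02 for Gbp9, 0.03 for Gbp4 and 0.16 for Gbp8.

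**Figure D3:**
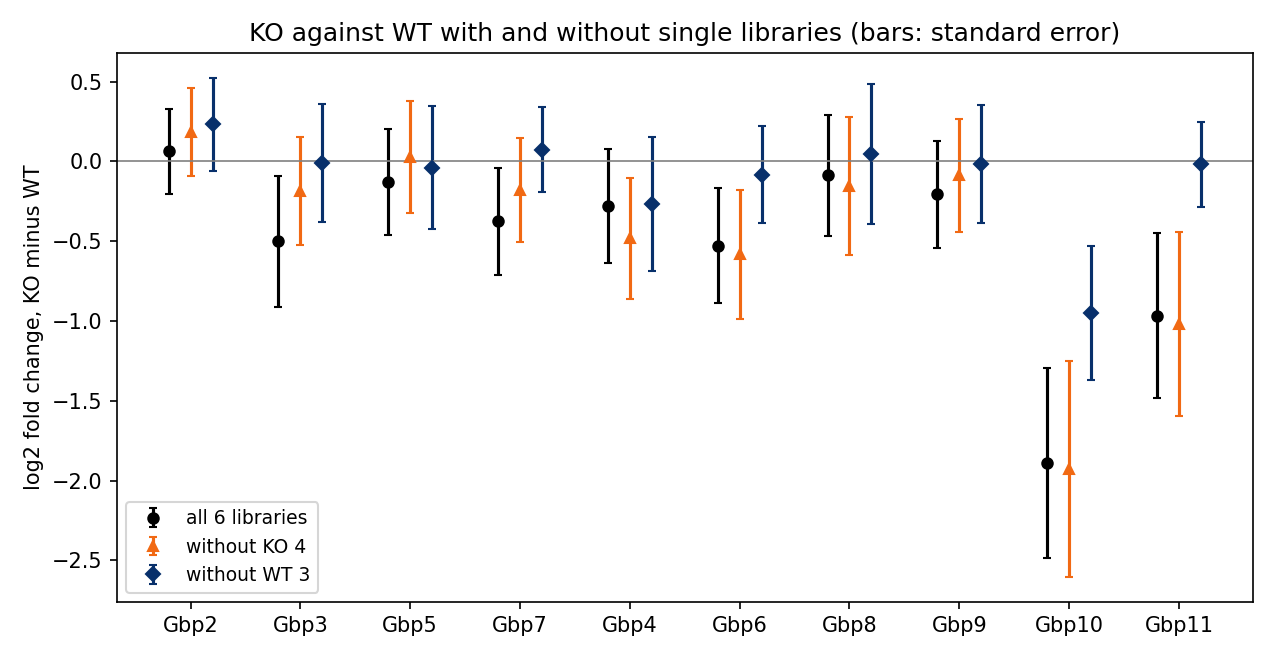
Log2 fold change (KO minus WT, edgeR) of each member with all 6 libraries (black circles), without KO 4 (orange triangles) and without WT 3 (blue diamonds). Bars are standard errors. With all libraries Gbp10 lies at -1.89 and Gbp11 at -0.97, and without WT 3 they lie at -0.95 and -0.02, while leaving out KO 4 moved neither by more than 0.05.

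The level of the family differed more between libraries of one group than between the groups. The mean over the 10 members of log2 CPM, taken relative to each gene's WT mean, was -0.18 in WT 1, -0.42 in WT 2 and 0.60 in WT 3, and it was -0.04 in KO 1, -0.74 in KO 2 and -0.53 in KO 4. WT 1 and WT 2 thus lay between KO 1 and KO 4, and only WT 3 lay above all KO libraries. The KO minus WT difference in this family level was -0.44, or -0.39 without KO 4 and -0.13 without WT 3. Summed over the 10 members, the level was 56.9, 46.4 and 103.6 CPM in WT and 69.4, 45.3 and 41.0 CPM in KO.

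WT 3 was the highest of the 6 libraries for 5 members, Gbp3, Gbp6, Gbp7, Gbp10 and Gbp11, against 19.3% of all genes tested. In these members WT 3 was 2.09 (Gbp6 and Gbp7) to 3.81 times (Gbp11) the mean of the other WT libraries, and in the other 5 members it was 1.03 (Gbp4) to 1.42 times (Gbp9). Among the KO libraries, KO 1 was the highest for 7 members, against 30.3% of all genes. KO 2 was the lowest of the 6 libraries for 7 members, against 18.1% of all genes, and KO 4 for 2, Gbp3 and Gbp7, against 21.3%.

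**Figure D4:**
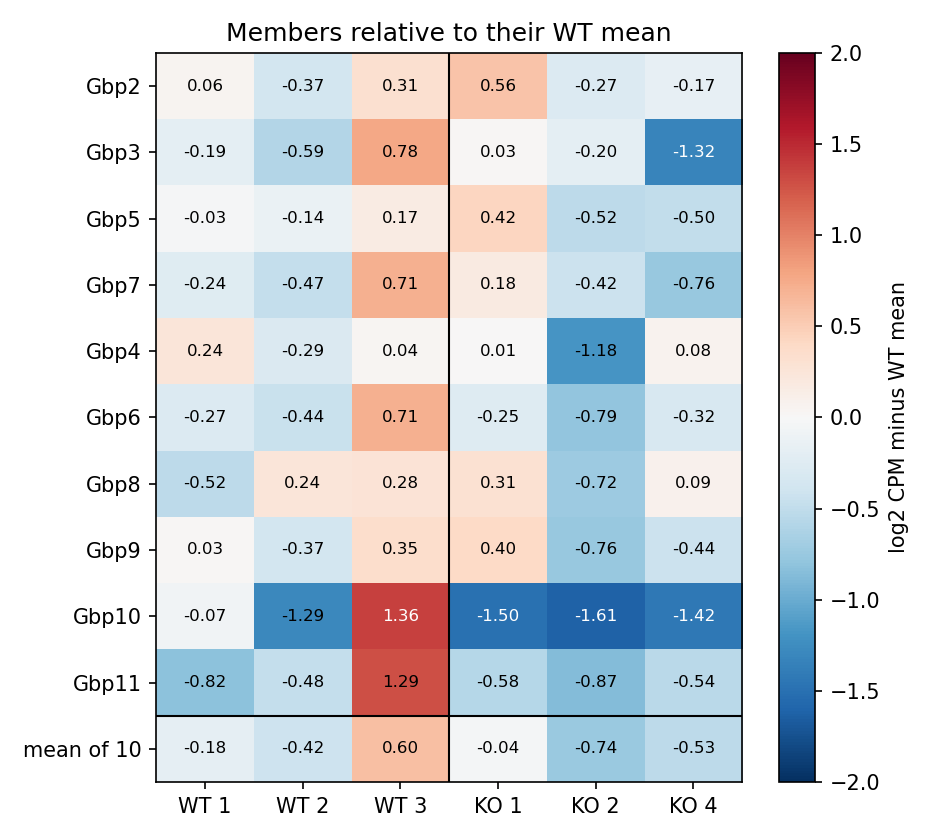
Log2 CPM of each member (rows) in each library (columns), minus that member's WT mean, with the mean of the 10 members in the last row. Red is above and blue below the WT mean. WT 3 is red in every row, at 0.60 in the last row, KO 2 is blue in every row, at -0.74 in the last row, and KO 1 is near the WT mean at -0.04.

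In KO 1 the chromosome 3 members were on average above and the chromosome 5 members on average below their WT means, although Gbp4, Gbp8 and Gbp9 of chromosome 5 were above theirs. The chromosome 3 members averaged 0.30 in KO 1, -0.35 in KO 2 and -0.69 in KO 4 on the family scale, and the chromosome 5 members averaged -0.27, -0.99 and -0.43. The KO minus WT difference was -0.25 for chromosome 3 and -0.56 for chromosome 5, or -0.03 and -0.63 without KO 4, and no test was made between the clusters. Restricted to the 6 members that share at most 10% of their windows, it was -0.23, or -0.16 without KO 4.

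Genes outside the family were ranked by how closely their log2 CPM followed the family level over the 6 libraries, as a description. The closest of 12007 genes were Adcy7, an adenylyl cyclase of blood cells, with a Pearson r of 0.993, Zfp62 with 0.992, Siglec1, a macrophage receptor that interferon induces, with 0.992, Trim30d with 0.984 and Rtl5 with 0.984. Spearman's rho was 1 for all but Rtl5, at 0.943. With WT 3 and KO 2 left out, r was 0.906 (Trim30d) to 0.988 (Siglec1) over 4 libraries. The genes were picked by their r over all 6 libraries, so the values over 4 of them are no separate support. All of these points share their libraries and depth, and 147 genes had an r above 0.9. Siglec1 itself had 7.30, 5.62 and 15.2 CPM in WT and 7.88, 3.40 and 4.76 CPM in KO.

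Markers of Kupffer cells and of sinusoidal endothelium were highest in WT 3 as well. The 12 Kupffer cell and macrophage markers summed to 426, 469 and 834 CPM in WT and 717, 429 and 462 CPM in KO, so WT 3 and KO 1 stood above the other 4 libraries. Of the 12, 11 were highest in WT 3. Among them Clec4f, which defines Kupffer cells in mice, had 90.0, 94.3 and 154.7 CPM in WT and 125.2, 82.5 and 76.7 CPM in KO. None of the 12 was at 0 in any group, and edgeR called 0 of them, with 0 at an unadjusted p under 0.05. The 10 sinusoidal endothelial markers summed to 268, 330 and 442 CPM in WT and 297, 262 and 331 CPM in KO, with 9 of 10 highest in WT 3. The 16 T and NK cell markers summed to 14.4, 14.5 and 15.9 CPM in WT and 27.5, 11.6 and 8.28 CPM in KO, with KO 1 highest and KO 4 lowest. Monocyte markers summed to 13.2 to 16.2 CPM in WT and 13.2 to 23.5 CPM in KO. Neutrophil markers summed to 2.12 to 3.87 CPM in WT and 5.19 to 16.2 CPM in KO, without overlap and again highest in KO 1. The part of these cell types in the Gbp values was not tested.

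**Figure D5:**
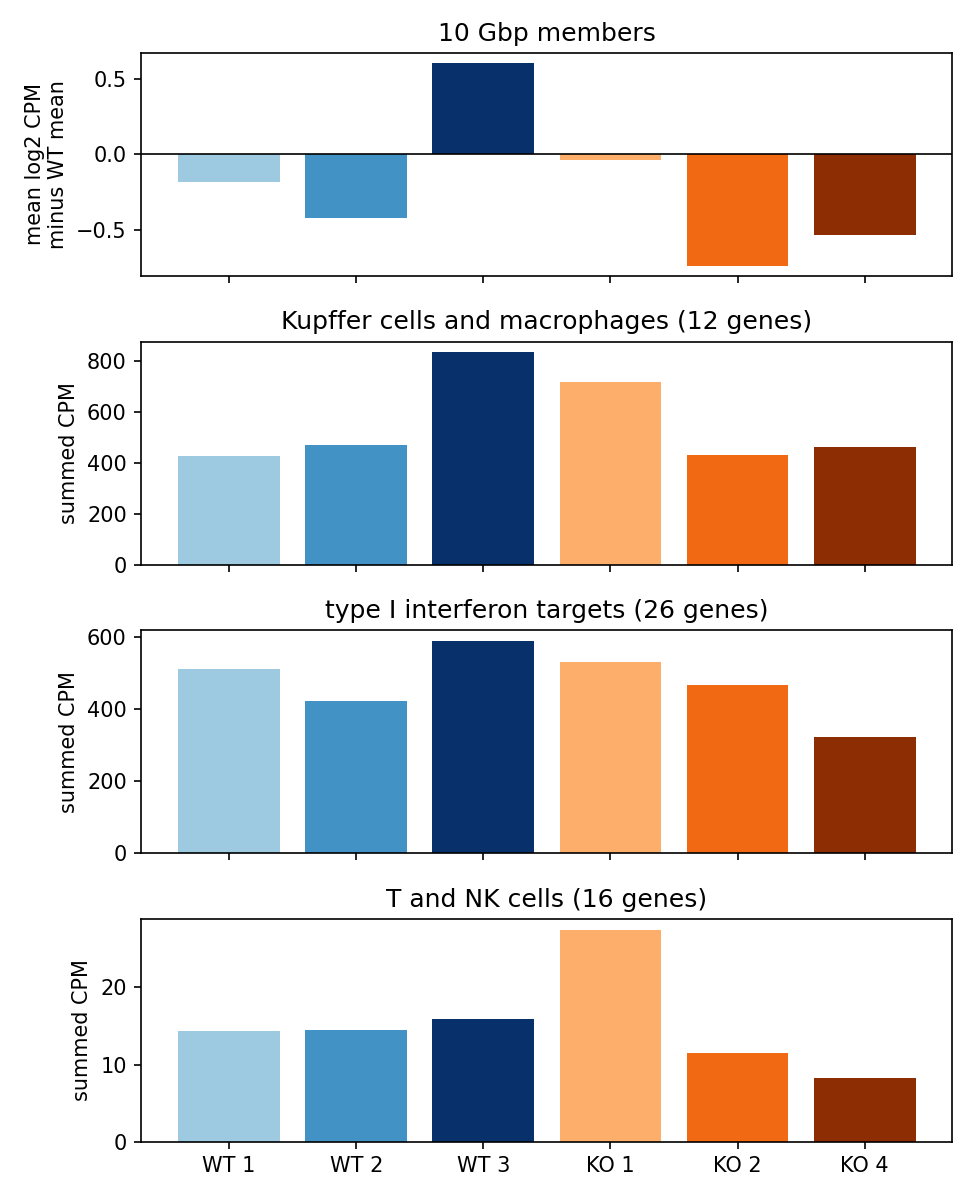
Top, mean log2 CPM of the 10 members minus their WT mean in each library. Below, summed CPM of 12 Kupffer cell and macrophage markers, 26 type I interferon targets and 16 T and NK cell markers in the same libraries. The Kupffer sum was highest in WT 3 (834 CPM) and KO 1 (717 CPM), which also had the highest family levels (0.60 and -0.04).

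Upstream of the family, the RNA of the ligand was almost absent. Neither chain of its receptor passed the edgeR test, which 0 of 13773 genes passed. Ifng, the gene of interferon-gamma, was at 0 to 0.193 CPM in every library and was not tested. The other 4 genes of its list, Ifngr1, Ifngr2, Jak1 and Jak2, had a median log2 fold change of -0.12, or -0.23 without KO 4. Ifngr1, the ligand-binding receptor chain, had 22.4 to 26.1 CPM in WT and 19.6 to 24.7 CPM in KO. Ifngr2, the other chain, had 38.5 to 45.7 CPM in WT and 27.5 to 36.1 CPM in KO, without overlap. Ranges were apart in either direction in 12.4% of all genes tested. The log2 fold change of Ifngr2 was -0.43 ± 0.14, or -0.38 without KO 4. Its unadjusted edgeR p was 0.013 with all libraries, and it did not pass after adjustment (adjusted p = 0.52, or 0.35 without KO 4). Of the 9 transcription factors of the pathway, edgeR and DESeq2 called 0 and 0 had an unadjusted p under 0.05 in edgeR, 7 had a lower and 2 a higher value in KO, and the median log2 fold change was -0.12, or -0.07 without KO 4. Irf1 was singled out here for its role at Gbp promoters, after its values were seen. It had 32.0, 29.3 and 48.5 CPM in WT and 28.4, 21.4 and 36.9 CPM in KO. It was highest in WT 3 and overlapped between the groups.

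The immunity-related GTPases, which act beside the Gbp proteins at parasite vacuoles, had a median log2 fold change of -0.36 over 14 tested genes, or -0.20 without KO 4. In all, 12 had a lower and 2 a higher value in KO, 0 passed the edgeR test and 1 had an unadjusted p under 0.05. That gene was Iigp1, which attacks the Toxoplasma vacuole in mouse and was the most abundant of the list. It had 436, 485 and 481 CPM in WT and 314, 296 and 335 CPM in KO, so the groups did not overlap and the 3 libraries within each were close. Its log2 fold change was -0.57 ± 0.11 (edgeR adjusted p = 0.20), and it passed in DESeq2 (adjusted p = 0.0038) and in edgeR without KO 4 (log2 fold change -0.61, adjusted p = 0.0496). Over all alternatives its adjusted p ranged from 0.0038 to 0.74 and its log2 fold change from -0.61 to -0.52. Its WT 3 level, 481 CPM, was no higher than its WT 2 level.

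Gm4951 and Irgm2 were the next most abundant of that list. Gm4951 had 112 to 120 CPM in WT and 85.4 to 109 CPM in KO, with a log2 fold change of -0.22 ± 0.12 (edgeR adjusted p = 0.80), and -0.30 without KO 4. Irgm2, a regulator of the family, had 98.1, 71.1 and 102 CPM in WT and 89.8, 63.9 and 47.2 CPM in KO, with KO 4 lowest. Its log2 fold change was -0.43 ± 0.24 (edgeR adjusted p = 0.80), and -0.23 without KO 4.

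Other interferon targets were described by type. Of 26 type I interferon targets, 23 had a lower and 3 a higher value in KO, with a median log2 fold change of -0.25, and 0 passed the edgeR or the DESeq2 test or had an unadjusted p under 0.05 in edgeR. Of these, 17 were highest in WT 3 and 20 were lowest in KO 4, and their median was -0.04 without KO 4 and -0.02 without WT 3. The most abundant was Bst2, with 169, 153 and 136 CPM in WT and 131, 166 and 115 CPM in KO. Of 24 tested interferon-gamma targets other than the GTPases, such as B2m and Tapbp of antigen presentation, 16 had a higher and 8 a lower value in KO, with a median of 0.10 (0.09 without KO 4), 0 calls by edgeR, 0 by DESeq2 and 2 genes at an unadjusted p under 0.05. B2m had 1324 to 1440 CPM in WT and 1342 to 1475 CPM in KO.

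The last lists cover genes that Gbp proteins work with, inhibitors of interferon signalling and other GTPases. The edgeR fit called 0 of 13773 genes in all, so its lack of calls here says nothing particular about these lists. The 8 tested inflammasome genes had 4 values on each side of 0 and a median of 0.09 (0.11 without KO 4), with 1 at an unadjusted p under 0.05. The 11 autophagy conjugation genes had a median of -0.00 (0.01 without KO 4), with 5 higher and 6 lower. The 5 protein prenylation genes had values below 0, with a median of -0.11 (-0.13 without KO 4). Of 6 inhibitors of interferon signalling, 4 had a higher and 2 a lower value in KO, with a median of 0.10 (0.13 without KO 4) and 1 gene at an unadjusted p under 0.05. The 3 atlastins, GTPases of the endoplasmic reticulum related to the Gbp proteins in structure, had a median of 0.01 (0.10 without KO 4), and of the Mx and giant GTPases the 2 genes tested had a median of -0.05 (0.20 without KO 4). DESeq2 called 0 genes in any of these last lists, and outside the inflammasome genes and the inhibitors edgeR gave 0 genes an unadjusted p under 0.05.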

How the data were processed

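Liver RNA of 3 WT and 3 KO mice was measured in 6 libraries. As deposited by the authors, the values are whole-number read counts for each gene with no normalization, in 1 table. Their processing notes and methods state poly(A) selection, directional libraries, single-end 75-base reads, bcl2fastq, Trimmomatic, STAR 2.5.0c, GRCm38.p5 with GENCODE M12, and featureCounts. Whether strand was used in counting is not stated there. Symbols, exons and transcripts were taken from GENCODE M21, and 49326 of 49671 IDs matched a symbol. The 10 member IDs were the same in both. Promoters came from RefSeq (GRCm38.p6).

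CPM are counts over the TMM-scaled library total. KO and WT were compared in R 4.3.3 with edgeR 4.0.16 (filterByExpr with its defaults, TMM, glmQLFit and glmQLFTest, Benjamini-Hochberg adjustment over all 13773 genes), and DESeq2 1.42.0 was an alternative. SE are of the edgeR log2 fold change, computed back as its absolute value over the square root of the quasi-likelihood F statistic. The fit was tested on simulated data. P-values set the KO minus WT difference against the spread between these libraries only, and the KO group mixes sexes.

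The members, gene lists and tests were chosen with earlier results of these data known. Named were all members and Gbp2b, in other lists up to 4 genes called or up to 3 with the largest mean CPM, the 5 genes closest to the family level, and Ngfr, Xist and Y-linked genes. For several lists only counts and medians are given. No 2 libraries agreed within sampling noise (a chi-square of 16.9 to 175 per degree of freedom). Alternatives were other scalings and filters, single libraries left out and a block on the replicate number.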

Additional observations from a re-analysis of the deposited data

How the results depend on the processing

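The count of genes called was 0 in the edgeR fit, 155 with DESeq2, 136 with no filter on low counts, 0 to 114 with 1 library left out (114 without KO 4), 288 without WT 3 and KO 4, and, in alternatives chosen after seeing the data, 406 with DESeq2 without KO 4 and 203 with DESeq2 without WT 3. The count of members called, 0 in edgeR, was 1 with DESeq2, 1 with DESeq2 without KO 4 and 0 with DESeq2 without WT 3. The count of members lower in KO, 9 of 10, ranged from 5 (without KO 2) to 10 (without KO 1) with 1 library left out and was 5 without WT 3 and KO 4. In the pathway lists 0 genes were called by edgeR, 1 by DESeq2, 0 to 1 with 1 library left out (1 without KO 4) and 1 without WT 3 and KO 4. With 1 library left out, the median log2 fold change of the members ranged from -0.62 (without KO 1) to -0.02 (without WT 3), and it was 0.04 without WT 3 and KO 4. The scaling, the filter on low counts and the tool left it between -0.36 and -0.32.

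The numbers 1 and 2 occur in both groups, but nothing in the labels pairs the mice. Deviations from the group mean correlated at -0.129 for number 1 and 0.0522 for number 2. For mismatched numbers the values were 0.167 (WT 1 with KO 2) and -0.129 (WT 2 with KO 1). Correlations of this size cannot show whether the mice were paired. With a replicate block, 468 genes were called, and 2 pathway genes. With this block 5 members were lower in KO and the median was -0.02. A block leaves WT 3 and KO 4 without a partner. The Gbp3, Gbp7, Gbp10 and Gbp11 log2 fold changes with the block were 0.30, 0.24, -0.90 and -0.08.

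With 35 to 37 counts per KO library, Gbp10 had the lowest mean count of the members in KO, and its windows shared with Gbp6 and Gm43302 limit it further. With 3 mice a group, of which KO 4 stands apart in Xist and Y-linked genes, the log2 fold changes of 5 of the 10 members were within their standard errors.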
